A study of Mus musculus with 6 samples.

Results

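The MYC, MAX and MXD network was followed through its 10 genes, Myc, Mycn, Max, Mxd1, Mxd3, Mxd4, Mxi1, Mnt, Mga and Mlx, in 32D cells with and without the Nup98::Nsd1 fusion. Members were all probe sets annotated to 1 of these symbols alone, a probe set being a group of short probes read as 1 signal. They numbered 26 of the 45037 probe sets on the array that were not controls. The 32D line is a mouse myeloid line from bone marrow infected with Friend leukemia virus, of strain C3H/HeJ, and it depends on interleukin-3 for growth. One group, called mock here, was 3 samples of mock-transduced cells, titled with the retroviral vector MSCVpuro. The other was 3 samples of cells transduced with Nup98::Nsd1, a fusion found in acute myeloid leukaemia that joins a nuclear pore protein to a histone methyltransferase. Both groups shared the parental line, with its viral infection and its strain. The sources used here do not give whether the transduced cells were a clone or a pool, nor the culture conditions at harvest. Each sample's RNA went onto 1 Affymetrix Mouse430_2 expression array.

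MYC and its paralog MYCN are transcription factors that bind DNA only as partners of MAX, at the E-box motif, and activate genes of growth, nucleotide and ribosome synthesis. The MXD proteins (MXD1, MXI1, MXD3, MXD4), MNT and MGA compete for MAX, occupy the same motif and mostly repress, the MXD proteins and MNT through the SIN3 co-repressor and MGA within the Polycomb complex PRC1.6. MLX is a second hub that pairs with MXD1, MXD4, MNT and the MondoA proteins. In myeloid cells, maturation is known to bring a switch from MYC to MXD partners of MAX.

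The E-box itself, CACGTG, stood in some of the members' own promoters, and those windows are printed because the network binds this motif. Promoter windows from 250 bases before to 50 after a gene's start were taken from RefSeq (build GRCm38.p6) and matched by symbol. Of the 10 members 9 matched, with 11 windows in all, since Mxi1 had 3, of which the last 2 overlapped; Myc was not matched. The motif reads the same on both strands, so 1 match counts for both. It occurred in 4 of the 11 windows (36.4%), against 7.15% of the 32851 windows of the table. The windows with a match, capitals marking CACGTG, are those of Max (chr12:76962199-76962498, minus strand), Mxd4 (chr5:34187661-34187960, minus strand), Mnt (chr11:74830674-74830973, plus strand) and Mlx (chr11:101087040-101087339, plus strand), each printed 5′ to 3′ on the gene's strand:
Max: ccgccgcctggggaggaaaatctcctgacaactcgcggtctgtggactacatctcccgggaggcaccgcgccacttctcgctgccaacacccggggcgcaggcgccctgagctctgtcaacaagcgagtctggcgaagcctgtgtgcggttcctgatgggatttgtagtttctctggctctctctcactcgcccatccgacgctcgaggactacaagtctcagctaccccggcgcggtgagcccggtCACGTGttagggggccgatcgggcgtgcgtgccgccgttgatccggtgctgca
Mxd4: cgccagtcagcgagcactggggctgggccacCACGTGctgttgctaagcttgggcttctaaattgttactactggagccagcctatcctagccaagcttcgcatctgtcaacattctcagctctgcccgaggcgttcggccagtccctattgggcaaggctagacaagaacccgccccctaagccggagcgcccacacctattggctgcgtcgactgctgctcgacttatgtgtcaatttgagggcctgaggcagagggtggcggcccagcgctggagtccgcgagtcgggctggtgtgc
Mnt: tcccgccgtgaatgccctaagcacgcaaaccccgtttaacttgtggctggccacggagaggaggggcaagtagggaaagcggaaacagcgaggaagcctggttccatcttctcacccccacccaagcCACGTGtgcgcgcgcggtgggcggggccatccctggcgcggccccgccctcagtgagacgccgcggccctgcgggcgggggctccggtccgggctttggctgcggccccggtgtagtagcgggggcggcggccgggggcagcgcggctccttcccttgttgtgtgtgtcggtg
Mlx: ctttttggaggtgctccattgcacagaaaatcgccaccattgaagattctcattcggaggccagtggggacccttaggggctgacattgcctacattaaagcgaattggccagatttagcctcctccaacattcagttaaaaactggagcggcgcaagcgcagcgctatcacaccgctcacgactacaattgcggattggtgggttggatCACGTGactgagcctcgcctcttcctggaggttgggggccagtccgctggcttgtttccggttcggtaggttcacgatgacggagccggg
Counting the start as +1 with no position 0, the motif began at -3 in Max, so that it spanned the start, and at -40 in Mlx, -123 in Mnt and -219 in Mxd4. A match is a description of the letters and shows no binding. The windows of Mycn, Mxd1, Mxd3, Mxi1 and Mga held no match.

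The signal is the authors' MAS5 intensity, an array-scaled brightness on a linear scale, and comes with a call on whether the transcript was detected (Present, Marginal or Absent). The share of Present calls ran from 45.1% to 45.9% over the mock arrays and from 47.6% to 48.2% over the Nup98::Nsd1 arrays. For Actb, the signal at the 3' end over that at the 5' end, which reflects RNA and labelling quality, averaged 1.18 ± 0.031 in the mock group and 1.47 ± 0.026 in the Nup98::Nsd1 group (mean ± SD, n = 3). For Gapdh the same ratio differed less, at 0.76 ± 0.016 in the mock group and 0.82 ± 0.024 in the Nup98::Nsd1 group. The part of these differences in the changes below was not tested. Of 11 markers of myeloid progenitors, 9 were called Present on all 6 arrays, and Kit was Present on none. The summed signal of the 11 was 89610 to 96443 on mock and 61041 to 62002 on Nup98::Nsd1 arrays. This sum does not give the direction of each marker: Cebpa, 1 of the 11, averaged 616 ± 38.2 in the mock group and 1127 ± 77.1 in the Nup98::Nsd1 group. For mature neutrophils 4 of 8 markers were Present on all 6 arrays and Ltf, Mmp8, Camp and Cxcr2 on none, with a summed signal of 7861 to 8133 on mock and 5929 to 6414 on Nup98::Nsd1 arrays. For monocytes and macrophages 3 of 5 were Present on all 6 and Cd14 on none, and the sum was 3968 to 4239 against 4578 to 4757. Of 3 erythroid markers, Epor and Gata1 were Present on all 6 (sum 3779 to 3884 against 2392 to 2802). The B cell list had 1 of 4 Present on all 6, Cd79b, with Cd79a and Pax5 on none and overlapping sums (482 to 541 against 455 to 506). Of 5 T and NK cell markers and 5 fibroblast markers, 0 were Present on all 6. The part of these marker differences in the results below was not tested. As these are bulk samples, fewer cells expressing a gene and less of its RNA per cell cannot be told apart. Since separate cultures are not stated, the p-values below reflect only how far these samples spread, which may be technical.

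Of the 26 member probe sets, 23 were tested, covering all 10 genes. Entering the test required Present calls on all 3 arrays of one group or the other. The test was limma's moderated test on log2 signals, with Benjamini-Hochberg adjustment over the 20494 probe sets that entered, and a probe set is called at an adjusted p under 0.05. Log2 fold changes are Nup98::Nsd1 minus mock and are given with their standard error (SE). Of the 23, 11 were called higher (47.8%) and 4 lower (17.4%), against 42.3% higher and 27.6% lower among all tested probe sets. In either direction 65.2% of the members' probe sets were called, against 69.9% of all. Called changes of at least 2-fold numbered 5 (21.7%, against 15.9% of all), and the groups of arrays did not overlap at 17 (73.9%, against 73.2% of all). As a set, then, the network's probe sets were called about as often as other probe sets, and the description lies in which members went which way. The median log2 fold change was 0.30 over the members and 0.15 over all tested probe sets. That common shift depends on how the arrays are scaled: it was -0.009 when arrays were quantile normalized, -0.04 and -0.02 when centred on the 75th percentile and on the median, and -0.21 when scaled to the hybridization controls. The members' calls moved with it, from 11 higher and 4 lower as deposited to 8 and 6 after quantile normalization, 10 and 5 on the 75th percentile, 10 and 4 on the median and 5 and 8 on the hybridization controls. A direction is therefore given below with the number of the 5 scalings, the deposited one included, that called it.

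**Figure D1:**
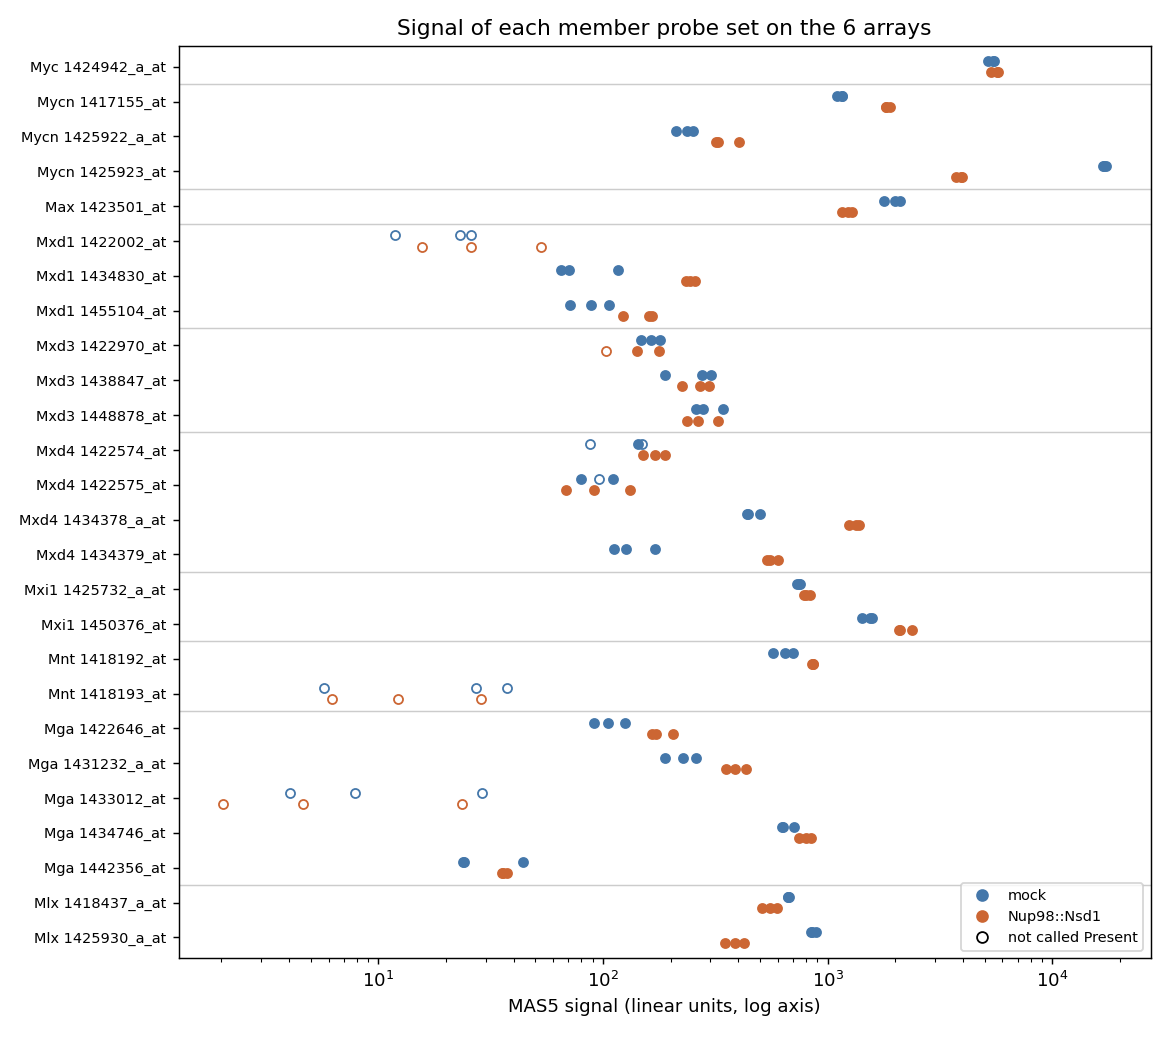
Signal of each of the 26 member probe sets on the 6 arrays, on a log axis; each point is 1 array, blue for mock and orange for Nup98::Nsd1, and an open point was not called Present. The Myc points of the groups overlap near 5400, the brightest Mycn probe set drops from about 17021 to 3874, and the orange points of Mxd4 1434378_a_at and 1434379_at lie right of the blue.

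Myc RNA hardly differed between the groups, while Mycn, its paralog, changed strongly and in opposite directions at different probe sets. Myc, which encodes the growth-promoting factor MYC, had 1 probe set, 1424942_a_at, called Present on all 6 arrays. Its signal was 5178, 5432 and 5493 on the mock arrays and 5718, 5358 and 5656 on the Nup98::Nsd1 arrays, and the groups overlapped. The log2 fold change was 0.06 (SE 0.043, 95% interval -0.04 to 0.15, adjusted p = 0.275). The scalings disagreed on it: quantile normalization called it higher (0.20), 75th percentile centring and hybridization control scaling called it lower (-0.14 and -0.31), and median centring left it uncalled (-0.11). Over these scalings the change of Myc thus stayed within -0.31 to 0.20 on the log2 scale and had no settled direction.

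Mycn encodes MYCN, which uses the same partner and motif as MYC. Its brightest probe set, 1425923_at, had signals of 16760, 16911 and 17392 on mock arrays and 3959, 3920 and 3742 on Nup98::Nsd1 arrays. Every Nup98::Nsd1 array thus lay far below every mock array. The level was 4.39-fold lower (log2 fold change -2.14, SE 0.040, adjusted p = 1.81e-11), as deposited the largest change among the tested member probe sets, and it was called lower under all 5 scalings (-2.50 to -2.05). The second probe set, 1417155_at, went the other way, from 1156, 1159 and 1095 to 1813, 1900 and 1819, or 1.62-fold higher (log2 fold change 0.70, SE 0.052, adjusted p = 2.81e-07). This rise was called under all 5 scalings (0.33 to 0.70). The dim 1425922_a_at, which the platform annotation ties to the same sequence record as 1425923_at, read 238, 210 and 251 on mock arrays. On Nup98::Nsd1 arrays it read 325, 405 and 319, a rise of 0.58 on the log2 scale (SE 0.13, adjusted p = 0.00165) called under 3 of the 5 scalings. Within each array, 1425923_at fell by 2.83 on the log2 scale relative to 1417155_at and by 2.72 relative to 1425922_a_at, values that do not depend on a common scale factor per array. Each gave an exact two-sided permutation p of 0.1, the smallest that 3 arrays against 3 allow (0.186 after adjustment over the 13 pairs of probe sets of 1 gene). The probe sets of Mycn therefore give no single direction for the gene. The part of the transcript each of them reads was not analysed here.

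Both hubs of the network were lower in Nup98::Nsd1 cells. Max, the obligate partner of MYC and MYCN and a partner of the MXD proteins, had 1 probe set, 1423501_at. Its signals were 2100, 1998 and 1776 on mock arrays. It read 1234, 1161 and 1285 on Nup98::Nsd1 arrays, all below the lowest mock array. Max was 1.59-fold lower (log2 fold change -0.67, SE 0.068, adjusted p = 3.82e-06) and was called lower under all 5 scalings (-1.04 to -0.67). Mlx, the MAX-like partner of MondoA, MXD1, MXD4 and MNT, fell at both of its probe sets. At 1425930_a_at the signals were 848, 847 and 886 on mock arrays and 423, 385 and 351 on Nup98::Nsd1 arrays, a level 2.23-fold lower (log2 fold change -1.16, SE 0.084, adjusted p = 2.49e-07). At 1418437_a_at they were 663, 666 and 671 against 551, 508 and 595, a fall of only 0.28 (SE 0.078, adjusted p = 0.00776). The groups overlapped at neither, and both falls were called under all 5 scalings. Relative to 1425930_a_at, 1418437_a_at was 0.88 higher on the log2 scale in Nup98::Nsd1 than in mock arrays (exact permutation p = 0.1), so the sizes differ by probe set. With Max and Mlx, all 3 probe sets of the hub genes were among the 4 member probe sets called lower; the fourth was Mycn 1425923_at. The E-box windows of Max and Mlx printed above thus belong to genes that fell, and those of Mxd4 and Mnt to genes with a probe set that rose.

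Of the MXD repressors, Mxd4 and Mxd1 rose most, Mxi1 rose less and no Mxd3 probe set was called. Mxd4, which encodes an MXD protein that restrains proliferation, read 437, 441 and 498 at 1434378_a_at on mock arrays and 1339, 1383 and 1240 on Nup98::Nsd1 arrays. That was a 2.88-fold rise (log2 fold change 1.53, SE 0.075, adjusted p = 1.14e-08). At 1434379_at, tied to the same sequence record, the signals went from 170, 112 and 127 to 556, 535 and 601, a 4.20-fold rise (log2 fold change 2.07, SE 0.15, adjusted p = 2.46e-07). At both, every Nup98::Nsd1 array exceeded every mock array, and both were called higher under all 5 scalings. The other 2 probe sets of Mxd4 were dim in both groups, as 1434379_at was on mock arrays. These 2 were tested only because they were Present on all 3 Nup98::Nsd1 arrays. At 1422574_at, Present on 1 mock array, the signals were 149, 87.7 and 143 on mock and 150, 171 and 188 on Nup98::Nsd1 arrays (log2 fold change 0.46, adjusted p = 0.0742), and without mock replicate 1 it was called higher (0.60). At 1422575_at, Present on 2 mock arrays, the groups overlapped (80.0 to 110 against 68.6 to 132; log2 fold change -0.01, adjusted p = 0.966).

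Mxd1, the first MAD protein described and one known to rise as myeloid cells mature, was dim but Present on all 6 arrays at 2 of its 3 probe sets. At 1434830_at the mock arrays read 117, 70.3 and 65.3 and the Nup98::Nsd1 arrays 234, 257 and 245, a 3.02-fold rise (log2 fold change 1.59, SE 0.22, adjusted p = 4.26e-05) called under all 5 scalings. At 1455104_at they read 71.0, 106 and 88.6 against 123, 160 and 165, a rise of 0.76 (SE 0.21, adjusted p = 0.00672) called under 3 of the 5. The groups overlapped at neither of these. The third, 1422002_at, was Absent on all 6 arrays, at 11.9 to 52.9, and was not tested.

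Mxi1, which encodes the MXD protein MXI1, rose at its brighter probe set, 1450376_at, from 1581, 1538 and 1423 to 2097, 2070 and 2376. The change was 0.53 on the log2 scale (SE 0.064, adjusted p = 1.90e-05), and it was called under 4 of the 5 scalings, not with hybridization control scaling (0.16). At 1425732_a_at the mock arrays read 747, 750 and 727 and the Nup98::Nsd1 arrays 802, 785 and 830. These groups did not overlap, yet the change of 0.12 did not pass (adjusted p = 0.106), and with hybridization control scaling it was called lower (-0.25). Mxd3, the MXD member known for its expression in S phase of the cell cycle, had 3 tested probe sets, and the groups overlapped at each. Its brightest, 1448878_at, read 342, 260 and 278 on mock and 236, 326 and 266 on Nup98::Nsd1 arrays (log2 fold change -0.09, 95% interval -0.41 to 0.23, adjusted p = 0.599). The other Mxd3 probe sets stood at 0.07 (1438847_at, adjusted p = 0.757) and -0.25 (1422970_at, adjusted p = 0.294), the latter Absent on 1 Nup98::Nsd1 array. Quantile normalization and hybridization control scaling called 1448878_at and 1422970_at lower, at -0.38 and -0.65 with the first and at -0.46 and -0.61 with the second.

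As deposited, the larger MAX partners MNT and MGA were called higher at 4 of their 5 tested probe sets, against 42.3% of all tested probe sets. With hybridization control scaling only Mga 1431232_a_at kept its call. Mnt, a widely expressed antagonist of MYC, read 704, 643 and 570 at 1418192_at on mock and 860, 848 and 864 on Nup98::Nsd1 arrays, a rise of 0.43 on the log2 scale (SE 0.081, adjusted p = 0.000559). The groups did not overlap, and the rise was called under 4 of the 5 scalings, falling to 0.06 with hybridization control scaling. The other probe set of Mnt, 1418193_at, was Absent on all 6 arrays, at 5.75 to 37.5. Mga, which carries both a MAX-binding domain and a T-box, had 5 probe sets, of which 3 were called higher. At 1431232_a_at it read 259, 226 and 189 on mock and 352, 435 and 388 on Nup98::Nsd1 arrays (log2 fold change 0.81, SE 0.14, adjusted p = 0.000242), called higher under all 5 scalings. At 1422646_at it read 106, 126 and 90.8 against 165, 204 and 172 (0.75, SE 0.18, adjusted p = 0.00258), called under 3 of the 5. At the brightest, 1434746_at, the rise from 708, 624 and 632 to 840, 801 and 744 (0.28, adjusted p = 0.00672) was called under the deposited scaling alone and stood at -0.084 with hybridization control scaling. The groups did not overlap at these 3. The dim 1442356_at was not called (23.9 to 44.2 against 35.3 to 37.3; 0.30, adjusted p = 0.492), and 1433012_at was Absent on all 6 arrays, at 2.03 to 28.9.

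**Figure D2:**
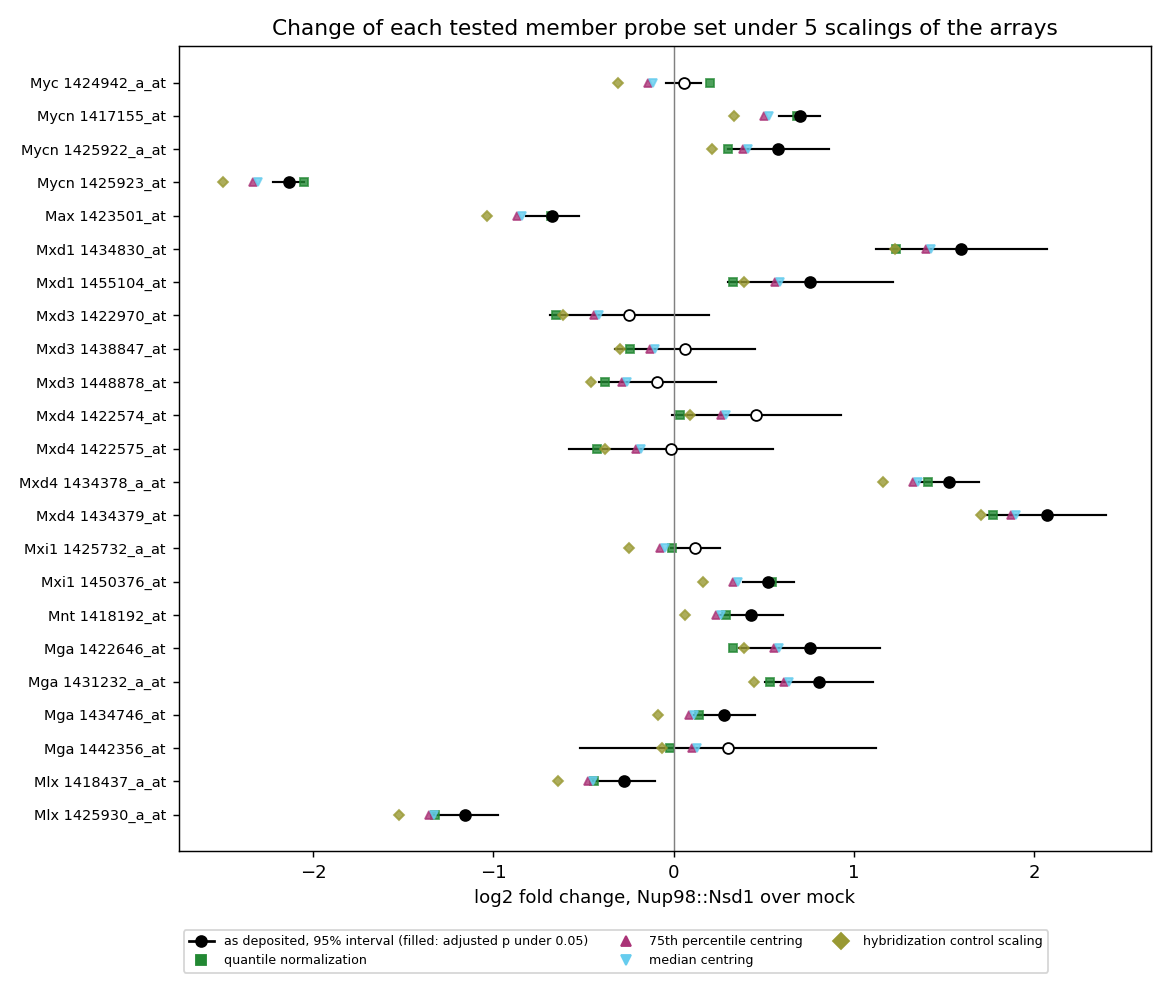
Log2 fold change of each of the 23 tested member probe sets, Nup98::Nsd1 over mock; circles are the deposited signals with 95% intervals (filled where adjusted p was under 0.05) and coloured marks are the other 4 scalings. Under all 5 scalings 5 probe sets were called higher (Mycn 1417155_at, Mxd1 1434830_at, both bright Mxd4 probe sets and Mga 1431232_a_at) and 4 lower (Mycn 1425923_at, Max and both of Mlx).

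A comparison of Myc with each partner within the same array does not depend on a scale factor per array, though it does depend on the probe set taken and on quantile normalization, which changes arrays unevenly. It was made at each gene's brightest tested probe set, as log2 Myc minus log2 partner, and shows only that 2 genes changed unequally, since levels of different probe sets cannot be compared. From mock to Nup98::Nsd1 arrays, this difference fell by 1.54 for Mxd1, by 1.47 for Mxd4, by 0.47 for Mxi1 and by 0.37 for Mnt. With quantile normalization the value for Mnt was -0.091. The Mxd1 probe set was the brighter only because of its signal on Nup98::Nsd1 arrays; with 1455104_at, the brighter on mock arrays (an alternative chosen after the data were seen), the value for Mxd1 was -0.70. With the probe sets of a gene averaged, the values were -0.95 for Mxd4 and -0.27 for Mxi1. The direction for these 4 antagonists held under the alternatives just given, and the sizes did not. At some dimmer probe sets of the same genes the direction was the opposite. As deposited, Mxd4 1422575_at changed by -0.01, against 0.06 for Myc. With quantile normalization Mxd4 1422574_at and 1422575_at and Mxi1 1425732_a_at changed by 0.04, -0.43 and -0.0076, against 0.20 for Myc. The Myc minus Mxd4 difference was 3.56, 3.62 and 3.46 on mock arrays and 2.09, 1.95 and 2.19 on Nup98::Nsd1 arrays. The Myc minus Mxd1 difference was 5.47, 6.27 and 6.39 on mock arrays and 4.61, 4.38 and 4.53 on Nup98::Nsd1 arrays. Relative to Max and Mlx, in contrast, Myc rose by 0.73 and 0.33, the latter 0.64 with quantile normalization, 0.77 with probe sets averaged and 1.21 with 1425930_a_at, the brighter probe set of Mlx on mock arrays. Relative to Mycn it rose by 2.19 at 1425923_at, but by 0.34 when the probe sets of Mycn were averaged. At Mycn 1417155_at and 1425922_a_at the direction was the opposite: these rose by 0.70 and 0.58 on the log2 scale, against 0.06 for Myc. Myc relative to Mycn thus had no single direction. In each of these 7 pairs, taken at the brightest probe sets, the groups did not overlap. The exact two-sided permutation p was 0.1, the smallest possible (0.129 after adjustment over the 9 pairs). For Mga and Mxd3 the groups overlapped (-0.23, exact permutation p = 0.2, and 0.15, exact permutation p = 0.5). With quantile normalization the Mga value turned sign (0.058) and the Mxd3 value was 0.58, and with probe sets averaged the Mga value was -0.48.

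**Figure D3:**
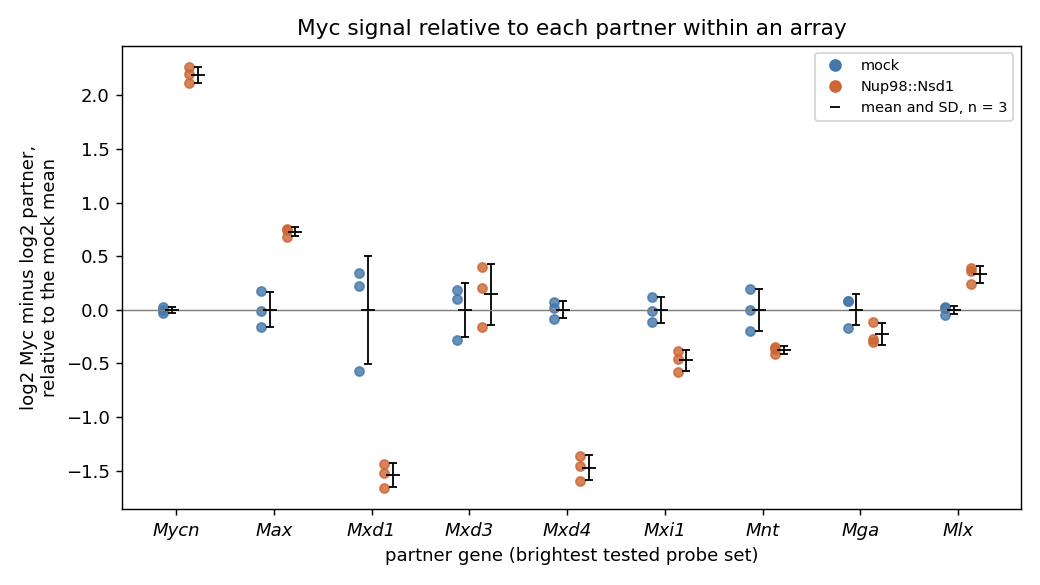
Log2 signal of Myc minus that of each partner on the same array, with the mock mean of each pair set to 0; points are arrays (blue mock, orange Nup98::Nsd1) and bars the mean and SD of 3. The Nup98::Nsd1 arrays lie below the mock arrays for Mxd1, Mxd4, Mxi1 and Mnt, above them for Mycn, Max and Mlx, and overlap them for Mxd3 and Mga.

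The genes whose profile over the 6 arrays lay closest to that of Myc were nearly flat, which follows from the measure because Myc was flat. The measure was the root mean square difference of log2 signals, each centred on its mean, among 15916 probe sets with 1 symbol that were Present on all 6 arrays. Closest to Myc were Dnajc13 at 0.0087, Stap1 at 0.014 and Ywhab at 0.017, with log2 fold changes of 0.06 each. Closest to Mycn 1425923_at were Epx, eosinophil peroxidase, at 0.060, the zinc transporter gene Slc39a10 at 0.061 and the chemokine gene Ccl9 at 0.099. Their log2 fold changes were -2.22, -2.04 and -2.23. As the arrays form 2 groups, the likeness to Mycn 1425923_at is mostly that of the group difference.

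Genes that work with the network were described by lists, with each gene taken at its brightest tested probe set and set against 9641 tested genes, of which 72.3% were called, 42.9% higher and 29.5% lower, at a median log2 fold change of 0.12. The lists were chosen with earlier results of these data known, so their counts are descriptions. Sap18, Rybp and Mrto4 had no probe set with that symbol alone, and Cbx3 and Rrp9 missed the detection filter.

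Subunits of the co-repressor complexes mostly fell. The SIN3 complex, which the MXD proteins and MNT recruit to deacetylate histones, had 15 tested subunits, of which 11 fell (73.3%) and 1 rose, at a median of -0.26. Hdac2, a histone deacetylase gene, dropped from 4870 ± 193 to 2786 ± 26.4 (mean ± SD, n = 3 each; log2 fold change -0.80, adjusted p = 2.19e-08). The accessory subunit genes Sinhcaf and Brms1l fell by 0.58 and 0.50. The gene Sin3b, for a scaffold of the complex, fell by 0.35 at its brightest probe set, but 1 of its 5 tested probe sets was called higher. The subunit that rose was the histone-binding Rbbp7 (0.13), named after its value was seen; its other tested probe set was called lower. The rise was not called on 75th percentile or median centring or when scaled to the hybridization controls, nor without Nup98::Nsd1 replicate 1, and without mock replicate 1 the count of risen subunits was 2. With quantile normalization 9 fell and 1 rose, and with hybridization control scaling all 15 fell. With the tested probe sets of each gene averaged, 8 of 15 fell and 0 rose, at a median of -0.17. Of 8 tested partners of MGA in PRC1.6, 6 fell (75%) and 0 rose, at a median of -0.19, while 2 were not called; 5 to 7 fell over the 5 scalings. Tfdp1, the dimerisation partner of E2F factors, went from 8947 ± 50.9 to 3581 ± 44.8, 2.50-fold lower (adjusted p = 2.27e-10). The repressor E2f6 was 1.72-fold lower, L3mbtl2, a reader of chromatin, 1.30-fold and the ubiquitin ligase gene Rnf2 1.16-fold lower.

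Co-factors of MYC and regulators of its stability took no common direction, with 6 of 17 higher and 6 lower at a median of -0.07. With the tested probe sets of each gene averaged, 10 were higher and 5 lower at a median of 0.33, so the balance depends on the probe set taken. With the other scalings 5, 3, 3 and 2 were higher and 6, 10, 10 and 11 lower, in the order quantile normalized, centred on the 75th percentile, centred on the median and scaled to the hybridization controls. Skp2, a ubiquitin ligase subunit that acts on MYC and on the inhibitor p27, went from 2587 ± 85.4 to 1006 ± 33.4, 2.57-fold lower (adjusted p = 1.58e-09), and was called lower at each of its 5 tested probe sets. Huwe1, another ubiquitin ligase with MYC among its targets, rose from 2274 ± 129 to 4699 ± 105, or 2.07-fold (adjusted p = 8.25e-09), and was called higher at each of 5. Trrap, the scaffold of the histone acetyltransferase complexes that MYC recruits, rose 1.80-fold, and Ruvbl1, a helicase-like subunit of such complexes, was 1.42-fold lower.

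Genes known to be activated by MYC were mostly lower, while Myc itself was not called as deposited. Over the 5 scalings Myc was called lower under 2 (-0.14 and -0.31) and higher under 1 (0.20). Of 50 tested, 41 fell (82%) and 4 rose, at a median log2 fold change of -0.56. Under the other 4 scalings 38 to 47 fell and 0 to 4 rose. Tert, among those that fell, entered the test only through its Present calls on the 3 mock arrays, being Present on 1 Nup98::Nsd1 array. With Presence required on all 6 arrays, 40 of 49 fell and 4 rose. Nme1, a nucleoside diphosphate kinase, fell from 8865 ± 295 to 4077 ± 209 (log2 fold change -1.12, adjusted p = 3.61e-09). The helicase gene Ddx18 fell from 3949 ± 69.6 to 1909 ± 21.3 (-1.05, adjusted p = 2.26e-09). The nucleolar genes Nop16 and Nolc1 fell by 1.12 and 1.04. Nme1 and Ddx18 each had another tested probe set that was called higher. The 4 that rose, named after their values were seen, were Gnl3 (0.13), Tcof1 (0.39), Exosc5 (0.33) and Ipo4 (0.23), and with hybridization control scaling none of them was called higher. Of 8 tested genes known to be repressed by MYC, 7 rose (87.5%) and 1 fell, at a median of 1.05, and 5 to 7 rose over the 5 scalings. Gadd45a, a growth arrest and stress gene, rose from 1197 ± 45.3 to 4628 ± 104, or 3.87-fold (adjusted p = 7.11e-11). The cyclin G2 gene Ccng2, a cyclin of arrested cells, rose 3.33-fold, Ndrg1 2.62-fold and Cdkn1b, which encodes p27, 2.33-fold. The gene that fell was the ferritin chain gene Fth1, by 0.10 (adjusted p = 0.0317), a call lost without mock replicate 2 or 3 or without Nup98::Nsd1 replicate 2 or 3, each of which left 0 genes lower. The other 4 genes of the list, Cdkn2b, Gas1, Ndrg2 and Pdgfrb, were not tested because they missed the detection filter.

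On the MLX side, 1 of 3 family members outside the 10 was tested: Mlxip, which encodes MondoA, averaged 352 ± 15.8 in mock and 420.1 ± 22.4 in Nup98::Nsd1 cells (a difference of 0.25 in log2, adjusted p = 0.0279), a rise called under the deposited scaling alone of the 5, and not without mock replicate 3 (0.22) or without Nup98::Nsd1 replicate 1 or 2 (0.22 and 0.24). Of the MondoA target genes Txnip and Arrdc4, Txnip, which limits glucose uptake, was tested. It rose from 2394 ± 197 to 7545 ± 408, or 3.16-fold (adjusted p = 1.40e-09), and both of its tested probe sets were called higher. Mycl, Mlxipl and Arrdc4 were not tested.

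**Figure D4:**
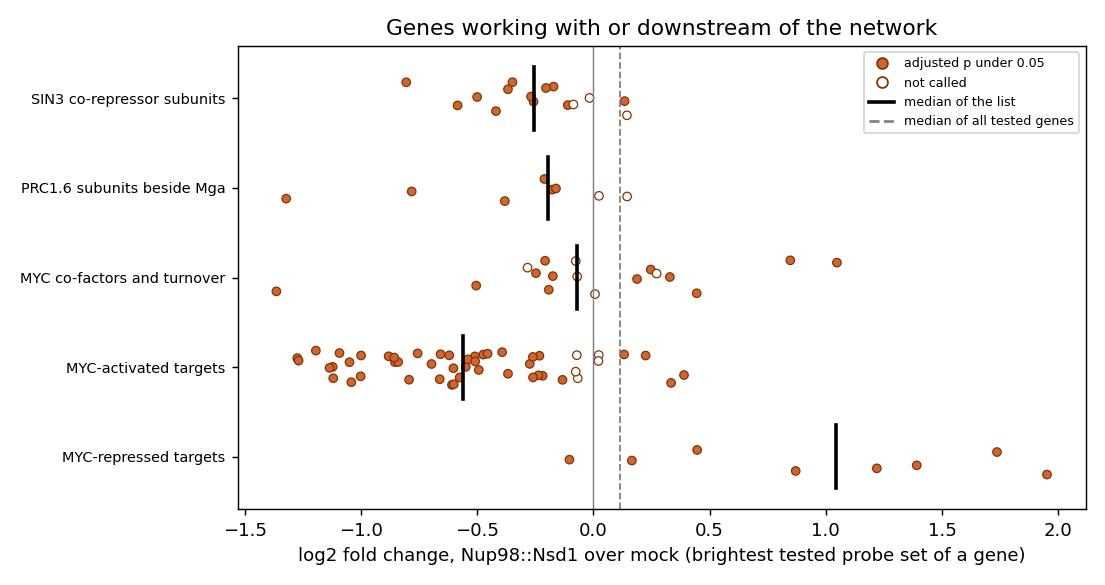
Log2 fold change of each tested gene, Nup98::Nsd1 over mock, in the 5 lists with at least 8 tested genes; filled points passed an adjusted p of 0.05, black bars are list medians and the dashed line is the median of all tested genes (0.12). Of the MYC-activated targets 41 of 50 lie among the called falls, and 7 of 8 MYC-repressed targets among the called rises.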

How the data were processed

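RNA of 3 mock and 3 Nup98::Nsd1 samples was measured on 1 array each. Per the submitters' processing notes the authors used MAS5. Deposited values are scaled intensity, with a detection call and a detection p-value, per the file headers; the sources used here do not give the version or the scaling target. On every array the 2% trimmed mean was 500.003. Signals under 1 were set to 1 and taken to log2. Probe sets with 3 Present calls in either group (20494) were fitted with limma 3.58.1 in R 4.3.3, by group with an intensity trend, and adjusted by Benjamini and Hochberg's method. The fit was tried on simulated data with 50 changed probe sets of each size. It recovered 20% of changes of 0.25 on the log2 scale, 52% of 0.5, 82% of 1 and 94% of 2, and 4.62% of calls were false. Far fewer probe sets changed there than were called in these data, so recovery here may differ. Symbols came from the platform annotation of the array, updated through Entrez identifiers in a RefSeq table. Members and lists were chosen with earlier results of these data known. Named were all members, up to 4 called genes of a list by smallest p, and the 3 genes nearest in pattern to Myc and to the most changed member. Within-array differences were tested by exact permutation over the 20 assignments of arrays. Alternatives were 4 other scalings (quantile, 75th percentile, median, and the 18 hybridization control probe sets), a pseudocount of 16, other detection filters, the matrix of the series, no trend, the mean over probe sets of a gene, array weights, a replicate block, leaving out each array and, for Myc against partners and chosen after the data were seen, the probe set brightest on mock arrays. The number of arrays limits the precision. Proteins were not analysed here.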

Additional observations from a re-analysis of the deposited data

How the results depend on the processing

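All 15 called member probe sets kept their call and direction with a pseudocount of 16, no filter on detection, Presence on all 6 arrays, array quality weights, the matrix of the series, the replicate block, no intensity trend and each array left out; 11 kept both when quantile normalized, 14 each when centred on the 75th percentile or the median, and 9 when scaled to the hybridization controls. With hybridization control scaling 5 member probe sets were called higher and 8 lower; Myc, Mxi1 1425732_a_at, Mga 1434746_at and Mlxip changed sign (-0.31, -0.25, -0.084 and -0.11), as did the uncalled Mxd3 1438847_at (-0.30) and Mga 1442356_at (-0.066). Myc turned with 75th percentile and median centring too (-0.14 and -0.11), and Mxd3 1438847_at and Mxi1 1425732_a_at did so under all 4 other scalings. Mga 1442356_at also turned with quantile normalization (-0.020). No shared deviation by replicate number was seen: deviations of same-numbered arrays correlated at -0.017, -0.011 and 0.021. Those of differently numbered arrays correlated at -0.033 to 0.045. These values do not show whether same-numbered samples were handled together. With the replicate block 11 member probe sets were higher and 4 lower, and 0 MYC-repressed genes fell, as without an intensity trend; 2 fell with hybridization control scaling. The rise of 1 SIN3 subunit became 0 with the mean of probe sets, and on 75th percentile centring, on median centring and with hybridization controls. Under those 3 scalings co-factors called higher numbered 3, 3 and 2, with 10, 10 and 11 lower, and 10 were higher and 5 lower with the mean of probe sets. MYC-activated genes called higher numbered 2, 2 and 0 under those 3 scalings. Leaving out 1 array gave 0 to 2 SIN3 subunits higher, 0 to 1 MYC-repressed genes lower and 0 to 1 family members outside the 10 higher, which was 0 under each of the 4 other scalings. The change of Myc relative to a partner moved, with quantile normalization, to -1.03 for Mxd1, 0.58 for Mxd3, -1.21 for Mxd4, -0.35 for Mxi1, -0.091 for Mnt, 0.058 for Mga and 0.64 for Mlx. With the mean of probe sets it moved to 0.34 for Mycn, -0.95 for Mxd4, -0.27 for Mxi1, -0.48 for Mga and 0.77 for Mlx, and with the probe set brightest on mock arrays to -0.70 for Mxd1 and 1.21 for Mlx. The cause of these moves was not tested. Dim probe sets limit the precision: at Mxd4 1422575_at the 95% interval ran from -0.58 to 0.55.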
